A study of Mus musculus with 8 samples.

Results

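The semaphorins, plexins and neuropilins form 1 guidance system, and its 31 mouse genes were taken by name as a family: 20 semaphorin ligands, 9 plexins and 2 neuropilins. Each of the 31 was matched to 1 of the 50462 gene identifiers in the expression table, and 29 of them had enough reads to be among the 17760 genes with an adjusted p-value. RNA was sequenced from the cartilage of the medial side of the knee of male C57Bl/6J mice, wild-type in genotype, with 1 library per mouse. In the DMM group (n = 4) the medial meniscus of the left knee had been destabilised by surgery at 11 weeks of age, a model of post-traumatic osteoarthritis, and cartilage was taken on day 42, at 17 weeks of age. In the naive group (n = 4) no surgery was done and cartilage was taken on day 0, at 11 weeks of age. No sham-operated mice were analysed here, so the surgery and the 6 weeks that the DMM mice were older cannot be told apart wherever the groups are compared.

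Semaphorins are secreted or membrane-bound proteins that share a sema domain and were first known as cues that steer growing axons. Plexins are their signalling receptors, and the secreted class 3 semaphorins mostly need a neuropilin as the ligand-binding coreceptor, apart from Sema3e, which binds plexin D1 directly. Bound plexins act on small GTPases and the cytoskeleton, and in skeletal tissue the family is known for roles in nerve and vessel patterning, in bone cells and in growth plate cartilage.

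The libraries held 12479400 to 16548000 estimated counts, and 16861 genes reached 10 counts in naive mouse 2 against 18322 to 19343 in the others. Chondrocyte markers, summed as a share of each library's counts, were present in every library but were lower in the naive mice, at 0.245% to 0.382% against 0.567% to 1.13% in the DMM mice (two-sided exact permutation p = 0.0286, which is the floor for 4 against 4 libraries, and 0.0858 after Benjamini-Hochberg adjustment over the 12 marker lists). The summed fibroblast markers moved in the same direction (0.0497% to 0.083% against 0.126% to 0.207%), and neutrophil markers in the opposite one (0.822% to 1.15% against 0.385% to 0.813%). Of the 8 chondrocyte genes Col2a1 had the most counts, with means of 23979.3 normalised counts in naive and 63820.8 in DMM mice. Acan, Col2a1 and Col11a1 were higher at an adjusted p of at most 0.05 in DESeq2, and 0 were lower. Col9a1 and Matn3 had lower means in DMM mice (log2 fold changes -0.36 and -0.29), with no difference detected. Of the 7 fibroblast genes Dcn had the most counts, with means of 6474.7 normalised counts in naive and 15896.9 in DMM mice. At an adjusted p of at most 0.05 in DESeq2, 4 of the 7 were higher and 1, Pi16, was lower. Endothelial markers took 0.0391% to 0.0442% of counts in the naive mice and 0.0428% to 0.0473% in the DMM mice. Since the tissue was sequenced in bulk, fewer cells of a type and less RNA per cell cannot be told apart, and the part of these shifts in the values of the guidance genes was not tested.

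Of the 29 genes tested, 10 (34.5%) differed between DMM and naive cartilage with an adjusted p of at most 0.05 in DESeq2 and a change of at least 1.5-fold, whereas 13.7% of all 17760 tested genes passed both thresholds. Of the 10 calls, 8 were higher in DMM cartilage (Sema3d, Sema3e, Sema3f, Sema3g, Sema4c, Sema5a, Sema6a and Plxna2), which is 27.6% of the 29 against a background of 7.75% called higher. The remaining 2, Sema4a and Sema4f, were lower, which is 6.9% of the 29 against 5.92% of all tested genes. With no threshold on the fold change, 19 members (65.5%) passed the adjusted p against 22.6% of all tested genes, with 15 higher (51.7%, background 11.4%) and 4 lower (13.8%, background 11.2%). The values of the naive and DMM mice did not overlap for 16 members (55.2%), 13 of them higher in DMM cartilage, and for 22.2% of all tested genes. The median log2 fold change was 0.40 over the 29 members and -0.02 over all tested genes. When the libraries were scaled to their total counts instead, the median of all tested genes moved to 0.14, and 12 members were called higher and 0 lower, because Sema4a and Sema4f no longer passed while Sema7a, Plxna1, Plxnd1 and Nrp2 did. Under that scaling 2030 genes of the whole table were called higher and 489 lower. The 6 calls that were kept whichever single library was left out were Sema3d, Sema3f, Sema3g, Sema4a, Sema6a and Plxna2.

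**Figure D1:**
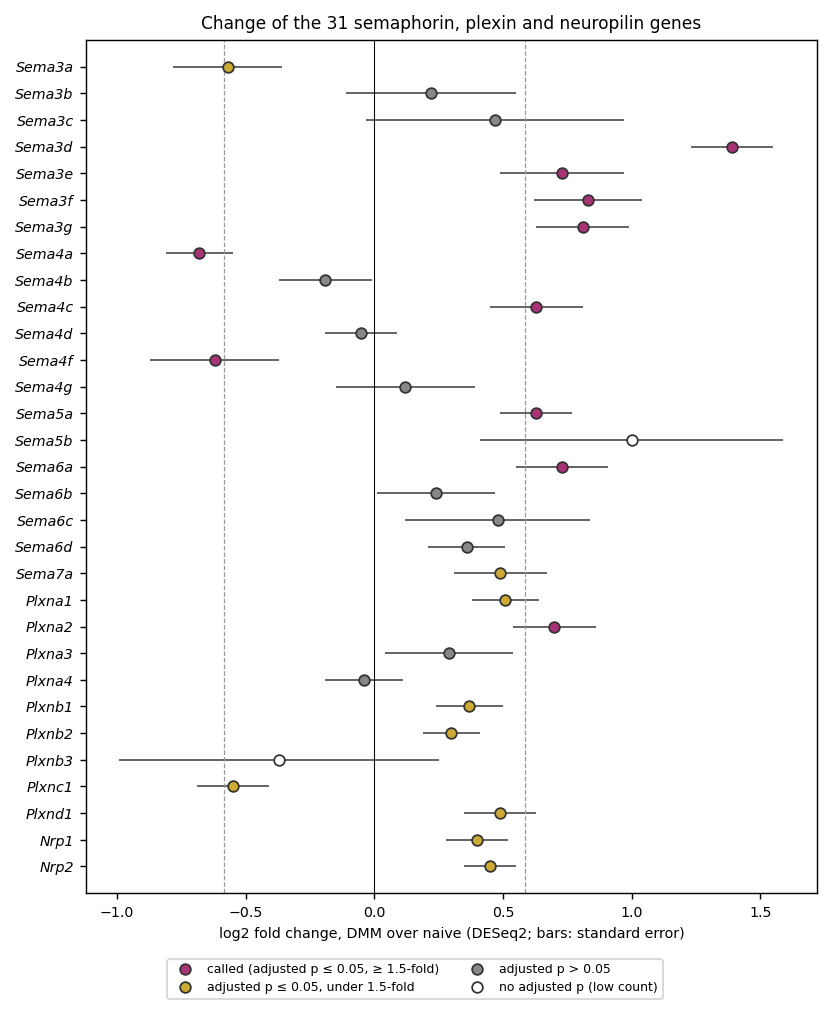
Log2 fold change of DMM over naive cartilage (horizontal axis) for the semaphorins, plexins and neuropilins, listed by class, with bars for the standard error and dashed lines at a 1.5-fold change. Colours mark the 10 called members and those past the adjusted p alone, open points mark the 2 genes with no adjusted p, and Sema3d, at 1.39, lies farthest to the right of the tested members.

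The ligands accounted for 9 of the 10 calls (7 higher and 2 lower of 19 tested) and the receptors for 1 of 10 tested, beside 13.7% of all tested genes. Past the adjusted p at any fold, the order was the opposite, with 8 of the 10 receptors (80.0%) and 11 of the 19 ligands (57.9%), and the difference between the roles was not tested. The secreted class 3 semaphorins held 4 of the calls in 7 genes, all higher in DMM cartilage (57.1%, beside 7.75% of all tested genes called higher). Sema3d (ENSMUSG00000040254, chr5:12383385-12588948 on GRCm38), a secreted ligand that acts through neuropilins and is known from heart and vessel development, was measured at 330.7, 351.2, 454.9 and 459.2 normalised counts in naive mice 1 to 4 and 826.8, 1046.0, 1176.4 and 1120.0 in DMM mice 1 to 4. Every DMM mouse lay above every naive mouse, with the lowest DMM value well clear of the highest naive one. The mean rose 2.61-fold, from 399.0 ± 67.6 to 1042.3 ± 153.3 (SD, n = 4 in each group), and the difference was far outside the spread between mice (log2 fold change 1.39, SE 0.16, adjusted p = 7.81e-15, DESeq2). It was also the 1 member called when the test was made against a change of up to 1.5-fold rather than against none.

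Sema3f (ENSMUSG00000034684, chr9:107681500-107710475), which binds neuropilin 2 and repels axons and endothelial cells, stood at 63.3, 66.5, 88.8 and 110.0 normalised counts in naive mice 1 to 4 and 142.6, 161.2, 133.4 and 147.1 in DMM mice 1 to 4. All DMM mice were above all naive mice, and expression rose 1.78-fold (log2 fold change 0.83, SE 0.21, adjusted p = 0.000964). Sema3g (ENSMUSG00000021904, chr14:31217860-31230352), a neuropilin 2 ligand best known from endothelium, was at 63.3, 69.2, 72.8 and 72.6 normalised counts in naive mice 1 to 4 and 111.1, 124.7, 120.2 and 130.0 in DMM mice 1 to 4. Here the spread within each group was narrow and the groups were apart, with a 1.75-fold rise (log2 fold change 0.81, SE 0.18, adjusted p = 0.00014). Sema3e (ENSMUSG00000063531, chr5:14025276-14256689), the plexin D1 ligand that restrains vessel sprouting, was at 162.7, 183.6, 280.4 and 320.9 normalised counts in naive mice 1 to 4 and 367.4, 333.2, 545.0 and 327.6 in DMM mice 1 to 4. DMM mouse 3 was the highest, naive mouse 4 lay close to DMM mouse 4, and every DMM value was still above every naive value. The 1.66-fold rise passed in DESeq2 (log2 fold change 0.73, SE 0.24, adjusted p = 0.0163) but not in edgeR (adjusted p = 0.0557), and it did not pass in DESeq2 without naive mouse 1 (adjusted p = 0.0747), naive mouse 2 (0.0672) or DMM mouse 3 (0.084).

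The other 3 class 3 genes were not called. Sema3a (ENSMUSG00000028883, chr5:13125414-13602565), the founding repellent of sensory axons in vertebrates and a ligand of neuropilin 1, was at 173.2, 216.8, 308.2 and 333.4 normalised counts in naive mice 1 to 4 and 178.3, 163.4, 191.8 and 158.8 in DMM mice 1 to 4. It was the 1 class 3 gene whose DMM mean was below the naive mean: the naive mice were widely spread, the DMM mice lay close together around the lower end of that range, and the groups overlapped. The difference passed the adjusted p but was just short of 1.5-fold (1.49-fold lower, log2 fold change -0.57, SE 0.21, adjusted p = 0.0354), and it was past both thresholds without naive mouse 1 (log2 fold change -0.72), naive mouse 2 (-0.64) or DMM mouse 3 (-0.62). In the other 5 fits with 1 library left out (naive mouse 3 or 4, DMM mouse 1, 2 or 4) it did not pass the adjusted p (0.0805 to 0.147), nor did it in edgeR (0.0787), in limma-voom (0.126) or under total count scaling (0.164). Sema3c, a ligand of both neuropilins known from heart outflow tract development, ran from 215.5 to 638.4 normalised counts in the naive mice and 332.1 to 907.2 in the DMM mice. DMM mouse 3 held the top value and the groups overlapped. No difference was detected, with a wide interval (log2 fold change 0.47, 95% interval -0.51 to 1.44, adjusted p = 0.566). The estimate depended on single libraries in both groups. Without naive mouse 4 the gene was called higher (0.89, adjusted p = 0.0262), whereas without DMM mouse 3 the log2 fold change fell to 0.015 and the gene was not called. For Sema3b, which was cloned from a region often lost in lung cancer, values ran from 46.6 to 94.5 normalised counts in the naive mice and 51.4 to 110.3 in the DMM mice, and the interval of the log2 fold change was -0.43 to 0.87 (adjusted p = 0.707).

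**Figure D2:**
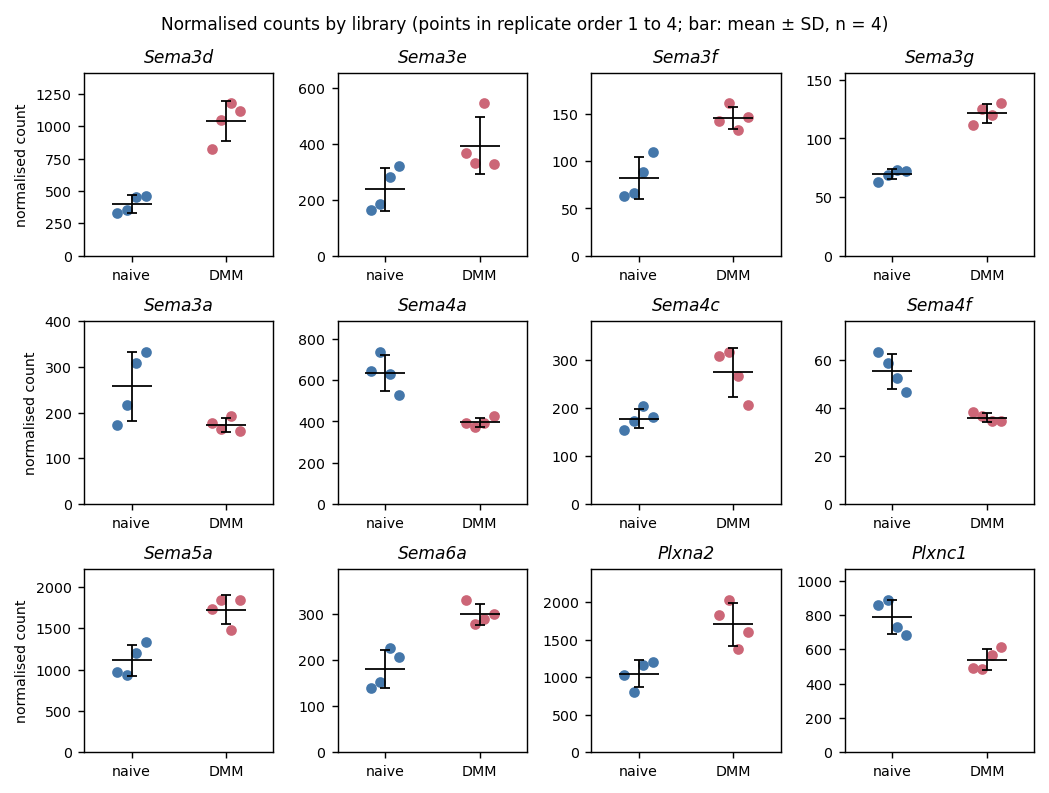
Normalised counts (vertical axis, 1 panel per gene) of 12 guidance genes in each naive and DMM library, with bars for the group mean and SD. For Sema3d, Sema3f and Sema3g the 4 DMM points all sit above the 4 naive points, and for Sema4a and Plxnc1 all sit below them, while for Sema3a the groups overlap.

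Sema3d, Sema3a and Sema3e are neighbours on the plus strand of chromosome 5, with Sema3c farther along the same strand. The gap from the end of Sema3d to the start of Sema3a is 536465 bases, that from Sema3a to Sema3e is 422710 bases, and that from Sema3e to Sema3c is 3317591 bases. From the start of Sema3d to the end of Sema3c (chr5:12383385-17730268, GRCm38), 11 genes were tested. The called ones were Sema3d and Sema3e, whose calls led to the stretch being looked at, and 1 other gene, Cacna2d1, a calcium channel subunit (log2 fold change 0.75, adjusted p = 0.000427, DESeq2), where 7.75% of all tested genes were called higher. Hgf, a growth factor gene in the same stretch, had a log2 fold change of -0.29 (adjusted p = 0.288). Sema3a, which lies between the 2 called semaphorins, was lower on average. The ratio of Sema3d to Sema3a estimated counts needs no scaling between libraries. It was 1.91, 1.62, 1.47 and 1.38 in naive mice 1 to 4 and 4.64, 6.40, 6.14 and 7.06 in DMM mice 1 to 4, with means of 1.59 ± 0.23 and 6.06 ± 1.02 (SD, n = 4). The ratio of Sema3e to Sema3a estimated counts, which takes no account of gene length, was 0.94, 0.85, 0.91 and 0.96 in the naive mice. In the DMM mice it was 2.06, 2.04, 2.84 and 2.07. Per kilobase of annotated exon, the naive means were 25.5 for Sema3e and 18.6 for Sema3a. That order depends on the length used. Sema3a has 13868 exon bases but a longest transcript of 5930 bases, against 9285 and 6861 for Sema3e. With the longest transcript as length the order of the naive means is reversed. Neither ratio overlapped between the groups. Both were computed after the separate values had been seen, so they are given without a test. Per kilobase of annotated exon, Sema3d took 25.5% ± 3.35 of the summed class 3 signal in naive and 38.6% ± 5.85 in DMM cartilage (SD, n = 4), whereas the share of Sema3a was 9.28% to 11.3% in the naive mice and 3.37% to 4.53% in the DMM mice. The size of such shares, too, depends on the length used for each gene.

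**Figure D3:**
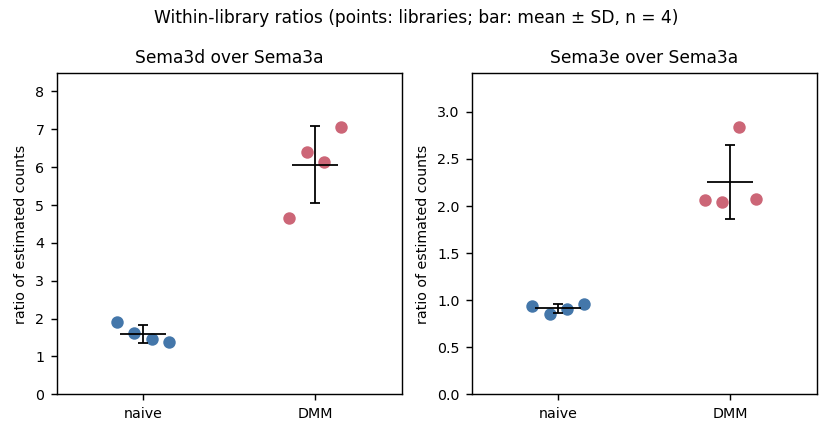
Ratios of class 3 semaphorins within each library (vertical axis, linear, no unit), with naive and DMM libraries as separate points and bars for the mean and SD. The Sema3d to Sema3a ratio lies between 1.38 and 1.91 in naive mice and between 4.64 and 7.06 in DMM mice.

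The 250 bases before the annotated start of each of the 3 neighbours are shown to let their sequence be set side by side, since Sema3d and Sema3e were called higher and Sema3a was not. They are RefSeq sequences of GRCm38.p6, read 5′ to 3′ on the plus strand at chr5:12382916-12383165 for Sema3d, chr5:13396534-13396783 for Sema3a and chr5:14025026-14025275 for Sema3e, and capitals mark CpG dinucleotides. None of the windows holds an annotated exon base, and the RefSeq start of Sema3a lies inside the longer gene model given above.
Sema3d promoter: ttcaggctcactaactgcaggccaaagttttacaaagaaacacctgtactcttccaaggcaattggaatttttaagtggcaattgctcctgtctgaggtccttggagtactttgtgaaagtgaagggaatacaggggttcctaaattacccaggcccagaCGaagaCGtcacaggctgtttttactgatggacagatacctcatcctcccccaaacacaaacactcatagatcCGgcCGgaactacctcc
Sema3a promoter: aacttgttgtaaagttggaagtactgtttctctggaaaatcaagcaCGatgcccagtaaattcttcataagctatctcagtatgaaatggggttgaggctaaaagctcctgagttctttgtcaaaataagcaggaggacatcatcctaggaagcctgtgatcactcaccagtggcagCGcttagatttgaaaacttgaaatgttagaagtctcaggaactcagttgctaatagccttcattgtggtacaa
Sema3e promoter: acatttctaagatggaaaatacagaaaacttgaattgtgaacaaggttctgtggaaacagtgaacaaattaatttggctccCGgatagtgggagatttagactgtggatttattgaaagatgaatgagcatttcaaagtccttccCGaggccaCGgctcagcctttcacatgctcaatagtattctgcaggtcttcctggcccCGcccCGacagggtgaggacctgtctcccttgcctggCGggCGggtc
All 3 windows had a G and C content below the median of all promoters. The Sema3d window was 46.8% G or C with 4 CpG, that of Sema3a 40.8% with 2 and that of Sema3e 48.0% with 7, beside medians of 52.4% and 6 over the 32851 promoters in the RefSeq table. The window of Sema3c differed from these, at 78.4% G or C with 39 CpG. The motifs searched were TATAAA on the forward strand, and on both strands TGANTCA (the AP-1 motif), GGAATG (TEAD), TGTGGT (RUNX) and AACAAT (SOX). The Sema3d and Sema3e windows held none of these letters, and the Sema3a window held TGTGGT from 10 bases before the start, a motif found in 14.0% of all promoters. The shares of all promoters with the other motifs were 7.59% for TATAAA, 6.75% for TGANTCA, 12.6% for GGAATG and 9.42% for AACAAT. Of the 31 guidance genes, 26 had promoters in the table.

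The class 4 semaphorins are membrane-bound ligands that signal mainly through B-type plexins and are best known from immune and bone cells. They held 3 of the calls in 6 genes (50.0%, beside 13.7% of all tested genes). Here 2 of the 3 were lower (33.3% of the 6, beside 5.92% of all tested genes), and neither was called under total count scaling. Sema4a (ENSMUSG00000028064, chr3:88435959-88461182), a costimulatory ligand of immune cells, was at 645.5, 738.4, 631.5 and 528.4 normalised counts in naive mice 1 to 4 and 392.3, 374.1, 391.8 and 425.1 in DMM mice 1 to 4. Every naive mouse was above every DMM mouse. The mean fell from 635.9 ± 86.0 to 395.8 ± 21.3 (SD, n = 4 in each group), a 1.6-fold decrease (log2 fold change -0.68, SE 0.13, adjusted p = 5.61e-06, DESeq2). Under total count scaling the log2 fold change was -0.52 (adjusted p = 0.000163), below 1.5-fold. Neutrophil markers were lower in the same libraries (means 1.02% and 0.621% of counts, exact permutation p = 0.0286, 0.0858 adjusted over the 12 marker lists), and their part in the Sema4a value was not tested.

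Sema4f (ENSMUSG00000000627, chr6:82911885-82939769), known from neurons and Schwann cells, had the largest adjusted p of the calls. It was at 63.3, 58.5, 52.4 and 46.5 normalised counts in naive mice 1 to 4 and 38.1, 36.5, 34.6 and 34.3 in DMM mice 1 to 4. The groups did not overlap, but counts were low, and the 1.54-fold decrease was close to both thresholds (log2 fold change -0.62, SE 0.25, adjusted p = 0.0493, DESeq2). It was lost on leaving out any library except naive mouse 4, with adjusted p from 0.0981 to 0.213 in those fits. Sema4c (ENSMUSG00000026121, chr1:36548639-36558349), a plexin B2 ligand, was at 154.8, 172.9, 203.3 and 180.3 normalised counts in naive mice 1 to 4 and 307.7, 317.1, 266.7 and 205.8 in DMM mice 1 to 4. DMM mouse 4 lay just above naive mouse 3 and the others were well apart, giving a 1.54-fold rise (log2 fold change 0.63, SE 0.18, adjusted p = 0.00367). That call fell below 1.5-fold without naive mouse 1 (log2 fold change 0.56), DMM mouse 1 (0.56) or DMM mouse 2 (0.55). Its exons overlap 334 exon bases of a gene on the opposite strand (D430040D24Rik), and with the strand setting not stated the reads of the 2 cannot be told apart there.

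Sema4d and Sema4b were the class 4 genes with the highest level per kilobase. Sema4d, the plexin B1 ligand by which osteoclasts restrain osteoblasts, was at 1475.6, 1652.3, 1228.7 and 1166.7 normalised counts in naive mice 1 to 4 and 1524.3, 1339.4, 1214.2 and 1255.4 in DMM mice 1 to 4. The groups overlapped over nearly their whole range, and the interval of the log2 fold change was narrow (-0.05, 95% interval -0.32 to 0.22, adjusted p = 0.851, DESeq2). Sema4b was at 817.8, 860.7, 666.8 and 603.2 normalised counts in naive mice 1 to 4 and 612.9, 852.5, 577.9 and 545.1 in DMM mice 1 to 4. DMM mouse 2 lay among the highest naive mice and the groups overlapped (log2 fold change -0.19, 95% interval -0.53 to 0.15, adjusted p = 0.498). The ratio of Sema4a to Sema4d estimated counts was 0.46 ± 0.03 in naive and 0.30 ± 0.04 in DMM mice (SD, n = 4). Sema4g was low in every library, with 29.0 to 51.0 normalised counts in the naive mice and 36.2 to 49.6 in the DMM mice, and had an interval of -0.42 to 0.65.

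Among the transmembrane classes 5 and 6 and the GPI-anchored class 7, 1 gene each of classes 5 and 6 was called. These were 1 of 1 and 1 of 4 tested genes, beside 13.7% of all tested genes. Sema5a (ENSMUSG00000022231, chr15:32244810-32696341), a large ligand with thrombospondin repeats, was at 976.1, 939.2, 1195.5 and 1332.3 normalised counts in naive mice 1 to 4 and 1735.7, 1841.5, 1476.8 and 1842.1 in DMM mice 1 to 4. The DMM mice were all above the naive mice, with naive mouse 4 closest to DMM mouse 3, and the gene rose 1.55-fold (log2 fold change 0.63, SE 0.14, adjusted p = 0.000152, DESeq2). Without naive mouse 1 (log2 fold change 0.58) or naive mouse 2 (0.56) it was under 1.5-fold. Sema6a (ENSMUSG00000019647), a ligand of plexins A2 and A4 in the developing nervous system, was at 139.8, 153.0, 225.8 and 206.4 normalised counts in naive mice 1 to 4 and 330.9, 278.4, 288.9 and 301.4 in DMM mice 1 to 4. Its groups were apart, and it rose 1.66-fold (log2 fold change 0.73, SE 0.18, adjusted p = 0.000598). Sema7a, which binds plexin C1 and integrins, was at 549.6, 532.1, 740.6 and 751.7 normalised counts in naive mice 1 to 4 and 1083.1, 1034.1, 690.7 and 817.7 in DMM mice 1 to 4. DMM mice 1, 2 and 4 were above all naive mice, and DMM mouse 3 lay below naive mice 3 and 4. The change passed the adjusted p but was under 1.5-fold (log2 fold change 0.49, SE 0.18, adjusted p = 0.0326), and it was past both thresholds without DMM mouse 3 (log2 fold change 0.61, adjusted p = 0.00458). It did not pass the adjusted p without naive mouse 1, naive mouse 2, DMM mouse 1 or DMM mouse 2 (0.117 to 0.152), in edgeR (0.0643) or in limma-voom (0.066).

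Sema6d, a plexin A1 ligand, ran from 745.0 to 1119.1 normalised counts in the naive mice and 996.9 to 1252.7 in the DMM mice. The groups overlapped slightly, and the log2 fold change of 0.36 did not pass (95% interval 0.07 to 0.65, adjusted p = 0.0643, DESeq2). For Sema6b the interval was -0.21 to 0.70, and for Sema6c it was -0.22 to 1.18, with adjusted p-values of 0.515 and 0.373. Sema5b had 3.07 to 16.8 estimated counts per library, too few for an adjusted p.

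Plexins of the A class transmit the signals of class 3 semaphorins bound to neuropilins and of class 6 semaphorins directly. Plxna2 (ENSMUSG00000026640, chr1:194618218-194816869) was the 1 receptor called. It was at 1033.3, 806.2, 1158.0 and 1204.1 normalised counts in naive mice 1 to 4 and 1825.3, 2030.7, 1370.6 and 1601.1 in DMM mice 1 to 4. All DMM mice were above all naive mice, the lowest being DMM mouse 3, and the mean rose from 1050.4 ± 178.1 to 1706.9 ± 284.7 (SD, n = 4 in each group), a 1.62-fold rise (log2 fold change 0.70, SE 0.16, adjusted p = 0.000301, DESeq2). Plxna1, which also serves dendritic cells and osteoclasts, was at 795.9, 957.9, 698.9 and 799.4 normalised counts in naive mice 1 to 4 and 1271.3, 1209.4, 1178.8 and 968.4 in DMM mice 1 to 4. The groups did not overlap, although naive mouse 2 and DMM mouse 4 were nearly equal, and the rise passed the adjusted p below 1.5-fold (log2 fold change 0.51, SE 0.13, adjusted p = 0.00169). Without naive mouse 2 or DMM mouse 4 it was past both thresholds (0.60 and 0.59). For Plxna1, 970 exon bases overlap a gene on the opposite strand (Gm26811). Of the gene's 31-base words, 8.57% also occur in other genes on either strand, and nearly all of these (8.55%) occur in Gm26811. Plxna3 and Plxna4 did not pass, with intervals of -0.20 to 0.78 and -0.34 to 0.26 and adjusted p-values of 0.453 and 0.902. Plxna4 also overlaps a gene on the opposite strand.

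The B plexins are the receptors of class 4 semaphorins. Plxnb2 was at 1597.0, 1869.2, 1609.7 and 1879.9 normalised counts in naive mice 1 to 4 and 2357.7, 2209.1, 2129.6 and 1886.3 in DMM mice 1 to 4. DMM mouse 4 was just above the highest naive mouse, and the small rise passed the adjusted p (log2 fold change 0.30, SE 0.11, adjusted p = 0.0317, DESeq2), but it did not without naive mouse 1, naive mouse 3, DMM mouse 1, DMM mouse 2 or DMM mouse 3 (0.061 to 0.14). Plxnb1, the Sema4d receptor, was at 251.5, 284.7, 321.1 and 303.9 normalised counts in naive mice 1 to 4 and 382.3, 340.8, 363.9 and 407.0 in DMM mice 1 to 4. The groups were apart, and the rise was again under 1.5-fold (log2 fold change 0.37, SE 0.13, adjusted p = 0.026) and did not pass the adjusted p without naive mouse 1, naive mouse 2, DMM mouse 1 or DMM mouse 4 (0.0781 to 0.139), while 257 exon bases of the gene overlap a gene on the opposite strand. Plxnb3 had 3 to 11 estimated counts per library and no adjusted p. Among the class 4 ligands of these receptors the values went both ways, with Sema4c higher, Sema4a and Sema4f lower and Sema4b, Sema4d and Sema4g without a detected difference.

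Plxnc1, the Sema7a receptor, was the 1 receptor that passed the adjusted p with lower expression in DMM cartilage. It was at 860.1, 887.4, 728.8 and 682.6 normalised counts in naive mice 1 to 4 and 492.6, 484.8, 567.2 and 614.6 in DMM mice 1 to 4. Every naive mouse was above every DMM mouse, with naive mouse 4 closest to DMM mouse 4. The decrease was just under 1.5-fold (1.46-fold, log2 fold change -0.55, SE 0.14, adjusted p = 0.000744, DESeq2), and it was past both thresholds without naive mouse 3 (-0.59), naive mouse 4 (-0.61) or DMM mouse 4 (-0.61). The ratio of Plxna2 to Plxnc1 estimated counts was 1.37 ± 0.38 in naive and 3.23 ± 0.86 in DMM mice (SD, n = 4). Plxnd1, the receptor of Sema3e on endothelium, was at 1584.7, 1684.2, 1837.6 and 2012.6 normalised counts in naive mice 1 to 4 and 2610.6, 3007.8, 2216.1 and 2159.7 in DMM mice 1 to 4. The groups did not overlap, with DMM mice 3 and 4 nearest to the naive range, and the rise was under 1.5-fold (log2 fold change 0.49, SE 0.14, adjusted p = 0.00337). The endothelial marker list, beside it, held 3 genes called higher and 1 called lower of 8.

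The neuropilins bind class 3 semaphorins and also serve as coreceptors of vascular endothelial growth factors. Nrp2, the member with the highest level per kilobase, was at 4232.6, 4156.1, 3969.6 and 3754.2 normalised counts in naive mice 1 to 4 and 6015.8, 5663.0, 4912.9 and 5359.2 in DMM mice 1 to 4. The groups were clearly apart, and the rise passed the adjusted p below 1.5-fold (log2 fold change 0.45, SE 0.10, adjusted p = 8.16e-05, DESeq2). Under total count scaling it was past both thresholds (0.60, adjusted p = 4.86e-07). Nrp1 was at 935.7, 822.2, 897.9 and 1066.9 normalised counts in naive mice 1 to 4 and 1221.6, 1367.4, 1274.3 and 1053.2 in DMM mice 1 to 4. Its highest naive mouse was slightly above its lowest DMM mouse, and the rise was likewise under 1.5-fold (log2 fold change 0.40, SE 0.12, adjusted p = 0.00934), with an adjusted p of 0.0569 without DMM mouse 2. The ratio of Nrp2 to Nrp1 estimated counts was 4.38 ± 0.64 in naive and 4.50 ± 0.60 in DMM mice (SD, n = 4), so the balance of both coreceptors differed by less than the spread between mice. Of the 8 growth factors and receptors that share the neuropilins, 3 were called higher and 0 lower (37.5% called beside 13.7% of all tested genes, median log2 fold change 0.40): Flt1 (log2 fold change 0.62, adjusted p = 0.00449), Vegfa (0.63, 0.0075) and Vegfc (0.63, 0.0245). The count was 0 without naive mouse 1 or naive mouse 2 and 1 without DMM mouse 1.

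**Figure D4:**
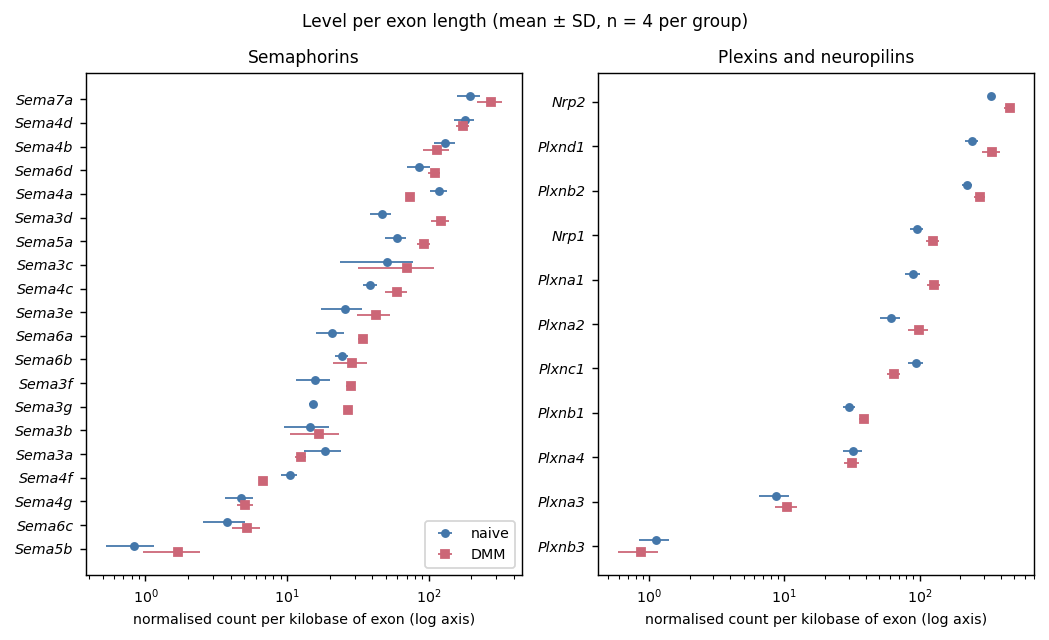
Level of each guidance gene in naive and DMM cartilage, as normalised counts per kilobase of annotated exon (horizontal axis, log scale), with points for the group means and bars for the SD. Genes are ordered by the mean of all 8 libraries, in which Nrp2, Plxnd1 and Plxnb2 lead the receptors and Sema7a, Sema4d and Sema4b the ligands, and in the DMM mice alone Sema3d (121) is above Sema4b (115).

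On a scale that allows genes to be compared, normalised counts per kilobase of annotated exon, the receptors were led by Nrp2 (mean level of all 8 libraries 402), Plxnd1 (293) and Plxnb2 (252), followed by Nrp1 (110) and Plxna1 (109). Nrp2 was above Plxnd1 in 8 of 8 libraries and Plxnd1 above Plxnb2 in 7, whereas Nrp1 was above Plxna1 in only 6. The ligands were led by Sema7a (235), Sema4d (177), Sema4b (123), Sema6d (97.7) and Sema4a (95.4). Sema7a exceeded Sema4d in 6 of 8 libraries and Sema4b exceeded Sema6d in 6, so these neighbours in the order are not clearly separated, while Sema4d exceeded Sema4b in all 8. Sema3d, at a per-kilobase level of 46.4 in naive and 121 in DMM cartilage, was the class 3 gene with the largest gain. These levels depend on the length used for each gene: with the longest transcript in place of all exons, the level of Nrp2 was 708, of Plxnd1 310, of Plxnb2 299 and of Nrp1 296, while Plxna1 stayed at 109, and Sema4d (303) was above Sema7a (235) and Sema4b (175). At the bottom, Sema5b (1.26) and Plxnb3 (1.0) were barely detected.

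**Figure D5:**
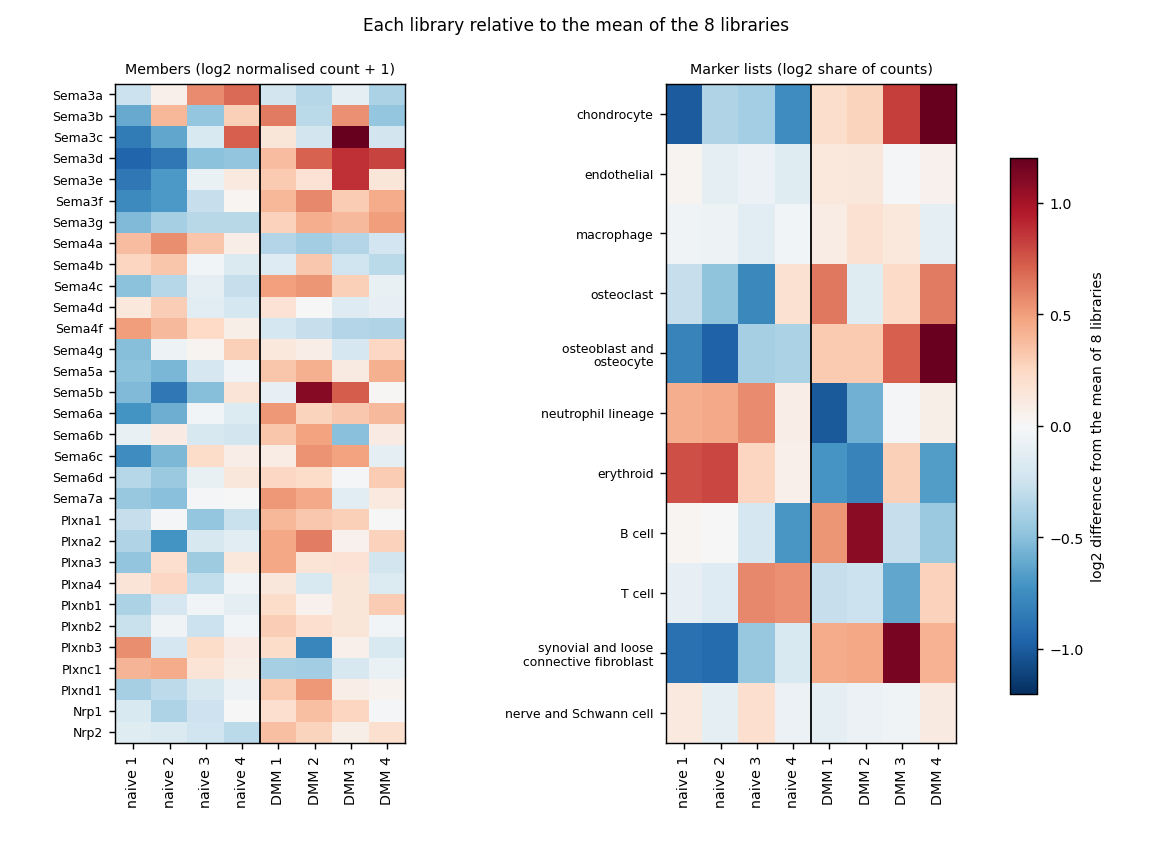
Heat maps with 1 column per library, for the guidance genes (left, log2 of the normalised count plus 1) and for 11 marker lists (right, log2 of their share of counts), each as the difference from the mean of the 8 libraries. In 13 of the 31 guidance gene rows every DMM column is above every naive column, and Sema4a, Sema4f and Plxnc1 turn from high to low.

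Genes that act with or downstream of the plexins were read from fixed lists of known pathway members. Of 27 tested genes of intracellular plexin signalling (GTPase regulators, collapsin response mediators and kinases), 6 were called higher and 0 lower, 22.2% against 13.7% of all tested genes, with a median log2 fold change of 0.16 beside -0.02 over all tested genes, and 9 passed the adjusted p upward and 4 downward at any fold. Farp2, an exchange factor that acts below plexin A receptors, lay between 325.4 and 368.5 normalised counts in the naive mice and rose to between 571.3 and 614.1 in the DMM mice (log2 fold change 0.75, adjusted p = 7.72e-11, DESeq2), with no overlap between the groups. Dpysl3, a collapsin response mediator that binds the cytoskeleton, rose by a log2 fold change of 0.95 (adjusted p = 4.95e-08) and Arhgap35, a GTPase-activating protein, by 0.62 (6.87e-06, but 0.58 without naive mouse 1). The count was 3 without naive mouse 1, and 4 without naive mouse 2 or DMM mouse 3. Of 9 tested coreceptors and non-plexin receptors of semaphorins, 3 were called higher and 0 lower (33.3% beside 13.7% of all tested genes, median 0.29). Ptk7, a catalytically inactive receptor kinase and plexin coreceptor, rose by 1.16 (adjusted p = 2.89e-10). Erbb2 (0.60, 0.0115) and Chl1 (0.81, 0.0269) rested on single libraries: the count of 3 went to 1 without naive mouse 3, DMM mouse 2 or DMM mouse 3.

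Other guidance families were counted in the same way. Among 15 tested slits, netrins and their receptors, 5 were called higher and 1 lower, with a median log2 fold change of 0.46, led by the netrin receptor Unc5b (0.88, adjusted p = 1.28e-07, DESeq2), the netrin and RGM receptor Neo1 (0.82, 2.98e-07) and the slit receptor Robo1 (0.78, 0.000316). The lower one was Robo3 (-0.95, 0.013). The count of 6 was 3 without naive mouse 1 and 4 without naive mouse 3. Among 17 tested ephrins and Eph receptors, 6 were called higher and 0 lower, with a median of 0.71, led by Efna5 (0.88, adjusted p = 0.000248), Ephb4 (0.71, 0.000526) and Ephb3 (1.26, 0.000608). That count was 10 without naive mouse 4, and 4 without naive mouse 1 or DMM mouse 2. The shares called, 40.0% and 35.3%, stood beside 34.5% for the semaphorins, plexins and neuropilins and 13.7% for all tested genes, and no test compared the families with each other.

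The study's small RNA work centred on miR-199a-5p, which was not measured in these libraries. By real-time PCR the paper found this miRNA upregulated in cartilage after DMM surgery. The letters its seed could pair with were looked up in the 3′ ends of the guidance genes. Its mature sequence (RefSeq, GRCm38.p6, chr1:162217844-162217866 on the plus strand and chr9:21496537-21496559 on the minus strand) is shown with the seed, bases 2 to 8, in capitals, and each match ACACTGG is shown in capitals within 30 bases of its transcript.
miR-199a-5p: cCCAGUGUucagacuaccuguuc
Plxna1: ggagccaactgcACACTGGgtggtggatgc
Plxna2: atataagctatcACACTGGcttctcaaaag
Plxna2, second match: tttccccatgacACACTGGaatctgtatta
Plxnb2: ccttacaaagccACACTGGgccactggggg
Plxnd1: taggagtgggggACACTGGcctcttagtgc
Plxnd1, second match: gctcccggtgacACACTGGaaatgactgtt
Sema4f: gtgtgtgtctatACACTGGtgtgcctcgaa
Sema5a: ctccttgcagtcACACTGGagtggcactcc
A match was held by 6 of the 31 members (19.4%), against 13.5% of 20798 genes, and the members' 3′ untranslated regions were longer, with a median of 1400 bases against 976. Of the 6, 5 were higher in DMM cartilage. Plxna2 and Sema5a were past both thresholds, and Plxna1, Plxnb2 and Plxnd1 past the adjusted p alone. Sema4f was called lower (adjusted p = 0.0493, DESeq2). Of the 29 tested members 34.5% were called and 65.5% passed the adjusted p, beside 13.7% and 22.6% of all tested genes. Whether the 6 differ from the other members was not tested. Dnm3os, the transcript that hosts 1 copy of the miRNA on chromosome 1, was at 255.4 to 415.3 normalised counts in the naive and 588.8 to 627.8 in the DMM mice (log2 fold change 0.88, SE 0.17, adjusted p = 1.64e-05, DESeq2). A match of letters is a description of the sequence, and no binding was measured here.

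Beside the guidance genes, the marker lists of the other cell types the cartilage caps could hold gave the following shares of counts. Osteoblast and osteocyte markers took 0.155% in naive and 0.38% in DMM cartilage on average, with 7 of 8 genes called higher, and erythroid markers took 1.46% and 0.779%, with 6 of 7 called lower. All 8 neutrophil markers were called lower, and 3 of 8 chondrocyte markers were called higher. Of 7 fibroblast markers 4 were called higher, and Pi16 passed the adjusted p downward below 1.5-fold (log2 fold change -0.35). Of 7 macrophage and 6 B cell markers 0 were called, with shares of 0.0479% and 0.0528% and of 0.0174% and 0.0255% in naive and DMM cartilage. Osteoclast markers took 0.0484% and 0.0767% with 1 of 5 called, and T cell markers 0.00717% and 0.00527% with 1 of 6 called, downward. Nerve and Schwann cell markers, the cells in which semaphorins were first studied, took 0.0149% and 0.0143%, with Sox10 under 10 counts in every library, and skeletal muscle markers took 0.00121% and 0.00307%.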

How the data were processed

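Cartilage RNA of 4 naive and 4 DMM mice was sequenced, and the authors deposited 1 table of estimated counts per gene (39.2% of the values are not whole numbers). Per the methods, reads were trimmed with Trimmomatic 0.39, assigned to the mouse GRCm38 transcriptome (Ensembl release 103) with Kallisto 0.46.1 and summed by gene with tximport 1.14.0; release 103 and GRCm38 do not belong together, and the labels name a human build, so the exact build is uncertain. The labels name a NEB low input RNA kit and the methods a SMART-Seq v4 kit, and the strand setting is not given in the sources used here. A symbol was found for 48855 of the 50462 identifiers. Coordinates, exon lengths and 3′ ends are from GENCODE vM21 (GRCm38), matched by identifier, and promoters and the miRNA are from RefSeq (GRCm38.p6).

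The estimated counts were rounded, without length offsets, and fitted with DESeq2 1.42.0 in R 4.3.3 (design: group), with Benjamini-Hochberg adjustment over all genes with an adjusted p. A gene was called at an adjusted p of at most 0.05 and a change of at least 1.5-fold. Normalised counts were counts divided by the DESeq2 size factor. Sums of marker genes were compared by an exact permutation test over the 70 assignments of libraries. Alternatives were edgeR 4.0.16, limma 3.58.1 (voom), other scalings and filters, a replicate block and leaving out each library; the scripts were tested on simulated data, with Python 3.11.15 for the summaries. All 31 members are accounted for. Values per library are given for called members, for members past the adjusted p alone, and for the 3 ligands and 3 receptors with the highest level per kilobase, and up to 3 called genes with the smallest adjusted p are named per pathway list; Cacna2d1, Hgf, Robo3 and Dnm3os were named after their values had been seen. The members and lists were chosen with earlier results of these data known, and the ratios, motifs and seed matches were chosen after values had been seen. Besides the overlaps given in the report, Sema4a, Plxnc1 and Nrp1 overlap a gene on their own strand by at most 115 exon bases. Each library came from a separate mouse, so the p-values measure the spread between mice. No 2 libraries of a group were near-identical (the chi-square per degree of freedom between any pair was at least 7.32). The same replicate numbers in both groups do not pair the mice: the correlation of the deviations of same-numbered libraries was 0.0498, 0.058, -0.119 and 0.117 over 18403 genes.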

Additional observations from a re-analysis of the deposited data

Results flagged for a closer look

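In 4 of 86 groups of 4 libraries tested, where chance alone gives about 4.3, the highest library lay far from the other 3 by Dixon's criterion. Sema3c in DMM mouse 3 was at 907.2 normalised counts, against 332.1 to 428.7 in the other DMM mice. In the same mouse the erythroid markers took 1.25% of counts (0.591% to 0.644% in the others) and the fibroblast markers 0.207% (0.126% to 0.13%). The skeletal muscle markers took 0.0101% in DMM mouse 1 and 0.000345% to 0.00111% in the others.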

How the results depend on the processing

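Of the 10 called members, 9 were kept with edgeR (Sema3e was lost), 10 with limma-voom, and 9 with TMM factors, with no independent filtering and with a replicate block (Sema4f was lost in each). With no fold threshold 19 members were called, 15 higher and 4 lower, and against a null of up to 1.5-fold 1 was called, higher, and 0 lower. The count of lower members was 1 with TMM factors, 1 with no independent filtering, 1 with the replicate block and 0 under total count scaling, where 12 members were called higher. Leaving out single libraries gave 7 to 12 members called, 5 to 9 higher and 1 to 3 lower. In the same fits 1858 to 2842 of all genes were called, 988 to 1649 higher and 769 to 1247 lower. The lowest count of higher members was without naive mouse 1 (5, losing Sema3e, Sema4c and Sema5a). That fit also had the lowest count of all genes called higher, 988 against 1377 with every library. Same-numbered libraries matched best in 3 of 8 cases, and the replicate block changed no other member's call. Of the 19 members past the adjusted p at any fold, 13 stayed past it with the replicate block (Sema3a, Sema4f, Sema7a, Plxnb1, Plxnb2 and Nrp1 did not), 14 with no independent filtering, 16 with edgeR, 17 with limma-voom, 17 under total count scaling and 18 with TMM factors. Vegfc was not called with the replicate block (adjusted p = 0.0634). The direction of Sema4d and of Plxna4 turned under total count scaling (log2 fold changes 0.11 and 0.12), and over single libraries left out they ran from -0.12 to 0.046 and from -0.13 to 0.039, as did Sema4g from -0.024 to 0.24; none of these 3 passed the test. Of all tested genes, 4010 were called with no fold threshold (1989 of them lower), 94 against a null of up to 1.5-fold (80 higher and 14 lower) and 489 lower under total count scaling. With no fold threshold 13 genes of intracellular plexin signalling and 5 coreceptors were called, the replicate block left 1 coreceptor, total count scaling called 10 ephrins and Eph receptors, and the null of up to 1.5-fold left 0 in each of the 5 pathway lists. Over single libraries left out the counts ran from 1 to 3 for coreceptors, 0 to 3 for growth factors, 3 to 8 for intracellular signalling, 3 to 7 for slits and netrins and 4 to 10 for ephrins. With 1 library left out, the exact permutation p ran from 0.0286 to 0.0857 for chondrocyte and 0.0286 to 0.0571 for neutrophil marker shares. For macrophage markers it ran from 0.0286 to 0.2 and for skeletal muscle markers from 0.457 to 0.857, the last changing direction. Such tests set 3 libraries against 4 and have fewer assignments, so their p-values cannot be compared with those of 4 against 4. The chondrocyte and neutrophil shares did not overlap between the full groups. With the longest transcript as length the per-kilobase levels were 708 for Nrp2, 303 for Sema4d, 299 for Plxnb2 and 175 for Sema4b. The causes were not tested. Counts limit the low genes: Sema5b and Plxnb3 could not be tested at this depth.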
